A study of Arabidopsis thaliana with 6 samples.

Results

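Rosette transcripts whose level was lowest with the gibberellin pathway blocked, intermediate in untreated plants and highest under a gibberellin spray were described in Arabidopsis thaliana. The members were selected on the measured values themselves. A probe set was kept when both GA arrays lay above both control arrays and both control arrays above both PBZ arrays on the log2(intensity + 10) scale. The group means also had to differ by at least 0.3 between GA and control, by at least 0.3 between control and PBZ and by at least 0.8 between GA and PBZ, and the mean GA intensity had to reach 30. Of 22746 probe sets, 230 (1.01%) met these limits, and 8 of them were left out by name (EXLA1, EXLA2, EXO, BZIP61, XTH16, XTH33, RALFL22 and RALFL33), which left 222 members. The list of names to leave out was longer, but no other probe set that met the limits carried one of them. Probe sets that are unnamed, name several genes or carry a locus code alone could not be left out this way. With 116 members unnamed and 92 with a locus code alone, some may belong to genes on that list. The mirror image, a stepwise fall with the same limits on differences, was met by 87 probe sets (0.382%).

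All plants were Col-0 carrying 35S:HF-RPL18B, a tagged ribosomal protein driven by a viral promoter that is active in most tissues, so the controls carried it too. Plants grew in soil with 16 h of light a day, and whole rosettes were harvested on day 27 according to the sample titles, while the source names give 25 days. The 3 groups held 2 arrays each: control plants with no treatment, PBZ plants watered on day 14 with 10 mL of paclobutrazol at 50 mg/L (0.5 mg per pot), and GA plants sprayed with 1 mL of 50 µM GA3 on alternate days. A spray without hormone is not described for the control and PBZ plants, so the spray and the hormone cannot be told apart in the GA group. No hormone level was analysed here, and "gibberellin supply" stands for the treatments.

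Gibberellins are plant hormones that promote cell expansion, stem and leaf growth and flowering. The hormone binds the GID1 receptors, and the complex marks the DELLA repressors for degradation, which frees growth-promoting transcription factors. Paclobutrazol blocks an early oxidation step of gibberellin synthesis and dwarfs plants, and GA3 is a bioactive gibberellin. In a growing leaf the cell wall has to yield while new pectin, hemicellulose and cellulose are laid down, so many known gibberellin-responsive genes act at the wall.

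The arrays were alike in overall signal, with median intensities of 32.4 to 33.9 and a correlation of log2 values over all probe sets of 0.981 to 0.988 within groups and 0.967 to 0.986 between groups. The 3'/5' ratios of control probe sets, a sign of RNA integrity, ran from 3.54 to 4.84 for actin, with overlapping groups. For GAPDH both control arrays (0.854 and 0.872) lay below the PBZ and GA arrays (0.925 to 1.08), and for ubiquitin both PBZ arrays (1.18 and 1.09) lay below the others (1.2 to 1.37). No ratio placed PBZ, control and GA in that order without overlap, and the part of RNA quality in the results was not tested. A gene is called measured here when the annotation used names a probe set for it alone. Of all 22746 probe sets 8730 are unnamed, so a gene not counted as measured may still be on the array. Of 26 mesophyll markers, 2 were measured, LHCB4.1 of the light-harvesting complex and the Rubisco activase RCA. Their summed intensity was 8448.6 to 9985.9 in the control arrays, 9283.8 to 9305.2 in PBZ and 8944.6 to 9241.3 in GA. Of 17 floral and pollen markers, the 1 measured, AMS, stayed under 10 in every array. Guard cell, trichome and vasculature lists had 1 measured marker each (FMA, TRY and SWEET11), none of which passed in any comparison, with SWEET11 nearest (PBZ minus control 0.43 ± 0.21, adjusted p = 0.446). The receptor genes GID1A and GID1B, known to be more highly expressed when gibberellin is low, were lower in GA than in PBZ (log2 difference -1.04 ± 0.13 SE with adjusted p = 0.0182, and -1.79 ± 0.21 SE with adjusted p = 0.0156). Against control neither treatment passed for either gene: GID1A and GID1B differed by 0.75 ± 0.13 (adjusted p = 0.0892) and 1.3 ± 0.21 (adjusted p = 0.0788) in PBZ and by -0.29 ± 0.13 (adjusted p = 0.629) and -0.49 ± 0.21 (adjusted p = 0.612) in GA. GID1A and GID1B were the 2 that passed in GA minus PBZ among 6 measured perception genes. The remaining receptor gene, GID1C, did not pass there (-0.38 ± 0.22, adjusted p = 0.448).

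Of the 222 members, 103 name 1 gene (102 different loci), 3 name several genes and 116 are unnamed in the annotation used here. Among those naming 1 gene, 11 have a gene symbol and 92 a locus code alone. Naming was less complete than for the array as a whole, where 59.4% of probe sets name 1 gene against 46.4% of the members. No role is given below for a locus code that the annotation does not name.

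The members were of moderate to high signal, as the limit of 30 on GA intensity favours. Their group mean intensity had a median of 50.7 in PBZ (range 1.1 to 689), 93.8 in control (6.25 to 1393.7) and 160 in GA (30.0 to 1727.0), while the medians over all probe sets were 33.9, 32.9 and 32.8. The PBZ mean of 14 members was under 10, the pseudocount, so their fold changes against PBZ are compressed. The GA minus PBZ difference ran from 0.82 to 4.53 on the log2 scale with a median of 1.29, a 2.44-fold difference of intensity + 10. At least 2-fold differences were seen in 177 members and at least 4-fold ones in 31. In these bulk rosettes, fewer cells of a type and less RNA per cell cannot be told apart.

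**Figure D1:**
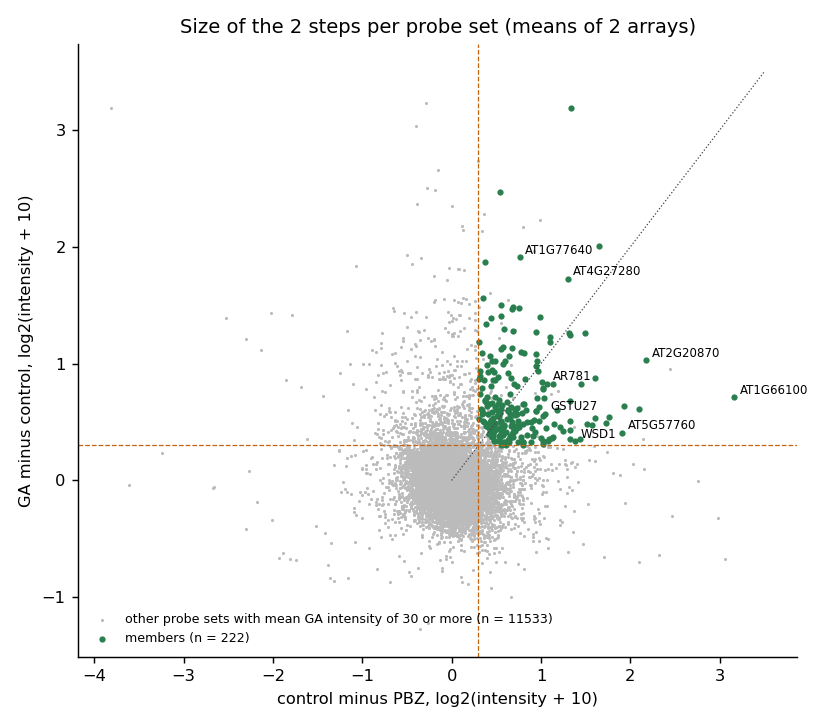
Size of the step from PBZ to control (x axis) and from control to GA (y axis) per probe set, as differences of group means in log2(intensity + 10). Green points are the 222 members and grey points the other probe sets with a mean GA intensity of 30 or more; dashed lines mark the limit of 0.3 on each step and the dotted line equal steps. Members lie above and to the right of the dashed lines by construction, with AT1G66100 far out on the x axis.

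The share of the rise that fell on each step differed widely between members. The GA step, GA minus control as a percentage of GA minus PBZ, had a median of 46.5% and ran from 17.7% to 83.3%. It lay between 40% and 60% in 101 members, under 40% in 71 and over 60% in 50. The step from PBZ to control had a median of 0.65 log2 units (1.57-fold) and the step from control to GA one of 0.57 (1.48-fold). The median difference over all probe sets was -0.025 and -0.021 for the same steps.

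Because the selection used all 6 arrays and all 3 differences, the p-values of the limma fit across all probe sets describe the members and support nothing about them. In GA minus PBZ, 180 of 222 members (81.1%) had an adjusted p under 0.05 and were higher in GA, against 1.96% of all probe sets higher and 1.01% lower. In PBZ minus control, 21 members (9.46%) passed and were lower in PBZ, against 0.281% of all probe sets lower and 0.233% higher, and these 21 also passed in GA minus PBZ. In GA minus control, 0 members passed with limma, and 0% of all probe sets were called higher and 0% lower. Without adjustment, 182 members and 1931 of all probe sets had a p under 0.05 in that comparison. The members' adjusted p there ran from 0.109 to 0.859, so the upper step of each single member did not pass the test.

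These calls rested on every array. With 1 array of a group left out, limma takes the remaining one to vary like the other groups. Without the first or the second GA array, 0 probe sets passed in GA minus PBZ, with 2781 and 2990 at an unadjusted p under 0.05. Without any one of the PBZ or control arrays, fewer members, and fewer of all probe sets, passed in GA minus PBZ than in the full fit. In PBZ minus control, 0 probe sets passed without any one of the control or PBZ arrays, at 2296 to 3518 with an unadjusted p under 0.05, and 4 without either GA array, none of them a member.

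**Figure D2:**
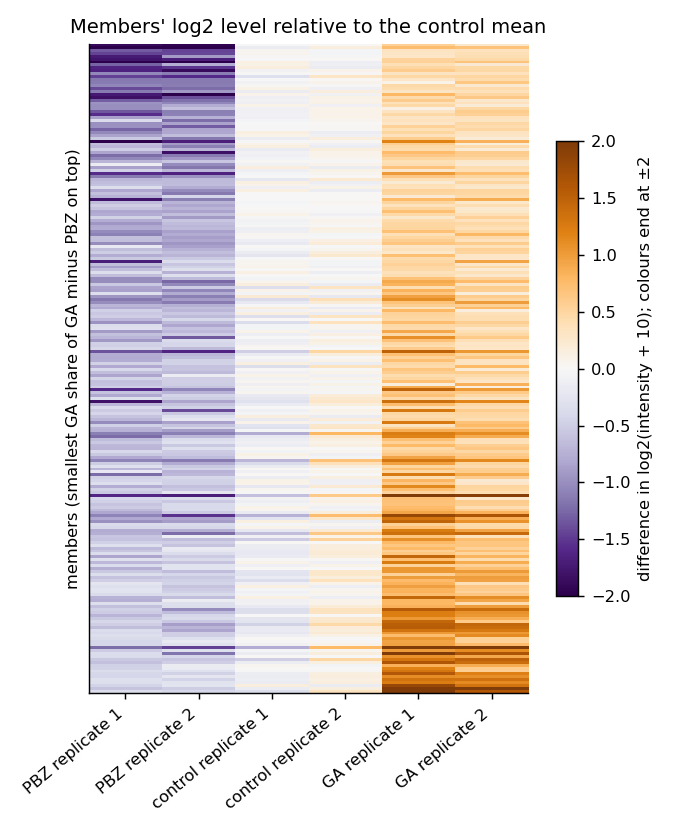
Level of the 222 members in each array relative to the mean of the 2 control arrays, as a difference in log2(intensity + 10), with one line per member and the colour scale ending at ±2. Members are sorted by the GA step's share of the GA minus PBZ difference, from 17.7% at the top to 83.3% at the bottom, so purple in PBZ fades downwards and orange in GA deepens.

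Genes of the cell wall were represented by 4 members with a symbol. PME61 encodes a pectin methylesterase, which removes methyl groups from pectin and so changes how firmly the wall is crosslinked. Its intensity was 42.8 and 48.3 in PBZ, 67.9 and 82.8 in control and 134.9 and 116.6 in GA. The groups did not overlap, as the selection required of every member, and the steps were close to equal with 52.2% on the GA side. GA minus PBZ was 1.29 ± 0.15 (SE) with adjusted p = 0.0159.

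CSLA03 belongs to the cellulose synthase-like A family, whose members make the mannan backbone of hemicellulose. It measured 28.5 and 30.6 in PBZ, 48.7 and 63.4 in control and 98.2 and 83.8 in GA. The GA minus PBZ difference of 1.35 ± 0.16 (adjusted p = 0.0161) was the larger of the 2 values that passed among 7 measured CSL genes. The other was CSLC04, of the CSLC family that builds the xyloglucan backbone, at 0.66 ± 0.12 (adjusted p = 0.0495).

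TBL37 is one of the trichome birefringence-like proteins, a family known for acetylating wall polysaccharides. It measured 25.3 and 32.9 in PBZ, 48.5 and 44.0 in control and 88.6 and 73.6 in GA, with GA minus PBZ at 1.22 ± 0.16 (adjusted p = 0.0205). Of 22 measured TBL genes, 1 passed in GA minus PBZ, and the median over them was -0.08. These families were taken by symbol after the values had been seen.

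THE1 encodes THESEUS1, a receptor-like kinase that senses the state of the wall and restrains growth when cellulose is deficient. Its intensity was 59.6 and 50.2 in PBZ, 67.4 and 76.7 in control and 135.6 and 96.9 in GA. The lower step was only 0.34 log2 units, the upper 0.61, and the GA arrays were far apart, so GA minus PBZ, at 0.95 ± 0.19, had an adjusted p of 0.0603. FER, the related receptor kinase FERONIA, showed 0.14 ± 0.16 (adjusted p = 0.716), and 0 of the 5 measured receptor kinase genes passed.

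A wider pectin list holds 28 genes, 4 of them measured, and 2 passed in GA minus PBZ, PME61 and ATPMEPCRB, another pectin methylesterase. ATPMEPCRB measured 40.5 and 49.7 in control, 49.4 and 30.6 in PBZ and 158.2 and 144.5 in GA. Its control and PBZ arrays overlapped, so it is no member, and GA minus PBZ was 1.71 ± 0.21 (adjusted p = 0.0177).

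ACT11, an actin gene best known from reproductive and young tissues, stood for the cytoskeleton. It measured 21.3 and 28.2 in PBZ, 47.5 and 52.5 in control and 74.5 and 73.3 in GA, with GA minus PBZ at 1.28 ± 0.14 (adjusted p = 0.0139). Of 9 measured tubulin and actin genes it was the 1 that passed. TUB7, a beta-tubulin, had the next smallest adjusted p of that list at 0.0696, with a difference of 0.58 ± 0.12.

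At the plant surface, WSD1 encodes a wax ester synthase of the cuticle. It measured 2.9 and 1.8 in PBZ, 22.8 and 21.3 in control and 29.9 and 30.9 in GA. On the log2 scale 19.5% of its GA minus PBZ difference lay on the GA side. PBZ minus control was -1.38 ± 0.12 (adjusted p = 0.0168) and GA minus control 0.33 ± 0.12 (adjusted p = 0.509). Its PBZ values lie under the pseudocount, and its mean GA intensity of 30.4 is close to the lower limit of the selection. It was the 1 gene of the cuticle and wax list of 32 that the annotation names, and unnamed members may hold others.

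GLC, or GLAUCE, belongs to the BAHD acyltransferases and is known for a part in fertilisation. It measured 27.1 and 24.9 in PBZ, 44.0 and 40.9 in control and 86.4 and 46.9 in GA. The second GA array was barely above the controls, and the adjusted p of GA minus PBZ was 0.0952 for a difference of 1.04 ± 0.25. A second probe set for the same gene read at most 10.6 in any array and was no member.

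GSTU27, a tau-class glutathione transferase of the kind that conjugates toxic compounds, was the brightest member with a symbol. It measured 226.6 and 257.7 in PBZ, 506.3 and 510.9 in control and 798.1 and 723.5 in GA. It passed in GA minus PBZ, at 1.61 ± 0.13 (adjusted p = 0.00789), and in PBZ minus control, at -1.04 ± 0.13 (adjusted p = 0.0466). Among 11 measured GSTU genes, GSTU26 was also higher in GA than in PBZ (1.35 ± 0.19, adjusted p = 0.0262) and GSTU23 was lower (-0.70 ± 0.12, adjusted p = 0.0434).

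AOP1 encodes a 2-oxoglutarate-dependent dioxygenase from the locus whose neighbouring copies modify glucosinolates, the mustard oil precursors. It measured 74.3 and 77.4 in PBZ, 100.1 and 116.2 in control and 153.9 and 133.6 in GA. GA minus PBZ was 0.84 ± 0.14 (adjusted p = 0.0388), among the smallest differences of the members. BCAT4, an aminotransferase of glucosinolate synthesis, showed 0.36 ± 0.13 (adjusted p = 0.223).

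ORA47 is an AP2/ERF transcription factor that activates jasmonate synthesis genes. It measured 15.8 and 14.8 in PBZ, 17.1 and 46.2 in control and 72.8 and 55.6 in GA, so 1 control array sat at the PBZ level and the other near GA. The GA minus PBZ difference of 1.54 ± 0.34 had an adjusted p of 0.0765.

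AR781, named without a known role, measured 39.6 and 35.2 in PBZ, 76.5 and 103.8 in control and 148.2 and 186.4 in GA, a difference of 1.90 ± 0.19 (adjusted p = 0.0116). AT3G53250 carries the synonym SAUR57 and so belongs to the small auxin up-regulated RNA family, many of whose members promote cell expansion. It was singled out after its values were seen. It measured 5.5 and 6.5 in PBZ, 26.2 and 30.1 in control and 47.6 and 35.4 in GA, and passed in PBZ minus control (-1.25 ± 0.16, adjusted p = 0.0466). None of the 7 measured genes of the fixed auxin list passed in any of the 3 comparisons, and the nearest was HAT2, a homeobox factor, with GA minus PBZ at 0.53 ± 0.13 (adjusted p = 0.102).

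**Figure D3:**
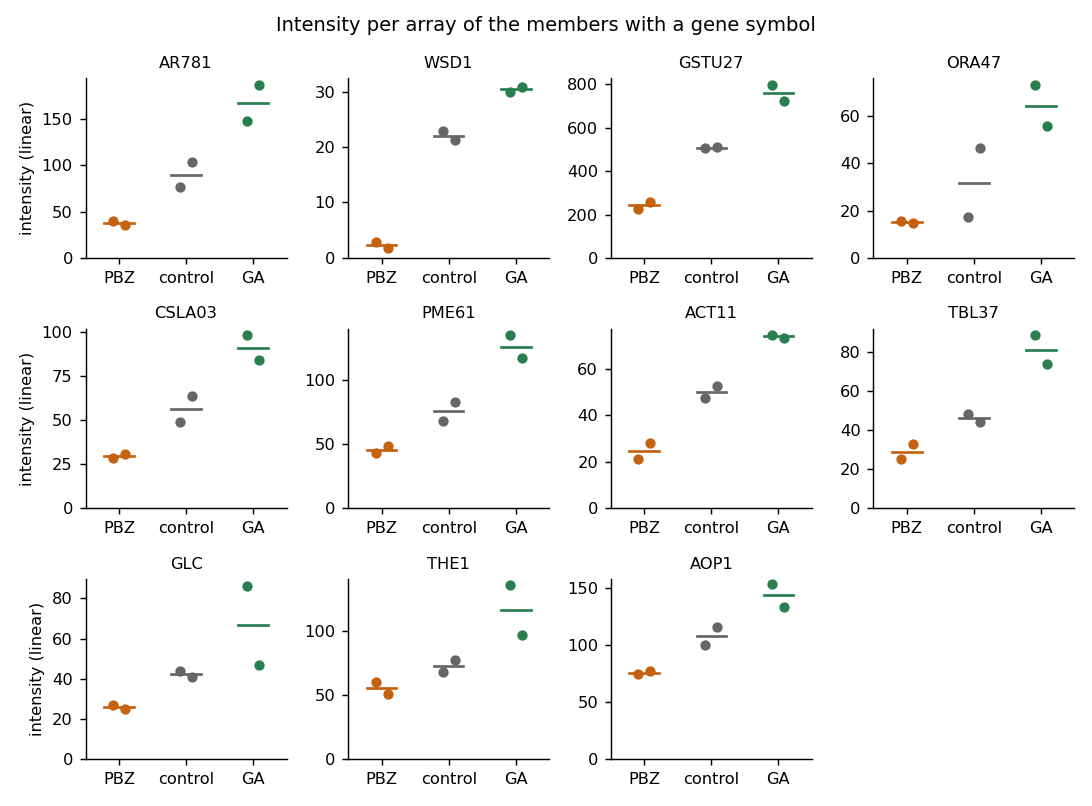
Intensity (linear scale from 0) of the 11 members with a gene symbol in each array, with 2 points per group and a bar at their mean. Panels run from the largest GA minus PBZ difference (AR781) to the smallest (AOP1). In ORA47 the control arrays lie far apart, at 17.1 and 46.2, and in GLC the GA arrays do, at 86.4 and 46.9.

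Among the members that name 1 gene, the largest GA minus PBZ differences belonged to locus codes without a symbol. AT1G66100 measured 71.7 and 114.6 in PBZ, 808.3 and 992.7 in control and 1510.6 and 1438.6 in GA. It fell 8.98-fold from control to PBZ (PBZ minus control -3.17 ± 0.23, adjusted p = 0.0105) and was 1.64-fold higher in GA than in control (adjusted p = 0.448). With 18.4% of the rise on the GA side, it had the second lowest GA share among the named members.

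AT2G20870 measured 11.0 and 31.7 in PBZ, 121.9 and 126.3 in control and 298.1 and 233.0 in GA. GA minus PBZ was 3.21 ± 0.32 (adjusted p = 0.0119) and PBZ minus control -2.18 ± 0.32 (adjusted p = 0.066). AT2G30930 measured 132.3 and 196.2 in PBZ, 404.5 and 434.1 in control and 1185.8 and 859.2 in GA, and its rise of 2.57 ± 0.23 (adjusted p = 0.0106) was split almost evenly, with 48.5% on the GA side.

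In several members the step from PBZ to control was the larger part of the rise. AT5G57760 had the lowest GA share of all, 17.7%, with 40.9 and 38.8 in PBZ, 175.7 and 179.5 in control and 266.1 and 215.0 in GA. AT3G56060 measured 26.0 and 20.7 in PBZ, 97.7 and 108.2 in control and 161.9 and 147.7 in GA. AT5G03120 measured 101.3 and 95.4, 310.8 and 329.5, and 654.7 and 541.9 in the same order of groups. All passed in PBZ minus control, at -1.91 ± 0.14 (adjusted p = 0.0115), -1.76 ± 0.14 (adjusted p = 0.0127) and -1.61 ± 0.14 (adjusted p = 0.0168). The GA shares of AT3G56060 and AT5G03120 were 23.6% and 35.3%. AT5G03120 was also 1.84-fold higher in GA than in control (adjusted p = 0.162).

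AT1G22330 was covered by 2 probe sets, and both were members. The brighter gave 7.7 and 9.0 in PBZ, 50.2 and 50.9 in control and 76.7 and 73.6 in GA, with adjusted p = 0.00343 in GA minus PBZ and 0.00935 in PBZ minus control. The dimmer gave 0.6 and 8.6 in PBZ, 25.7 and 24.7 in control and 32.9 and 37.1 in GA. It passed in GA minus PBZ (adjusted p = 0.0331) but not in PBZ minus control (-1.33 ± 0.26, adjusted p = 0.115). The PBZ values of both probe sets lie under the pseudocount, so their differences against PBZ are compressed. Their GA shares were close, at 22.2% and 21.0%. AT1G31690 also had 2 probe sets, but the dimmer one showed a GA minus control difference of 0.13 ± 0.24 and missed the limit, while the brighter gave 0.52 ± 0.15.

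Over the 21 members that passed in PBZ minus control, the GA share had a median of 24.6% and did not exceed 42.2%, the value of AT3G10720. A low share is built into this choice, since a large lower step is what passes in that comparison. That gene measured 48.9 and 39.1 in PBZ, 111.7 and 104.4 in control and 209.0 and 190.0 in GA. Of these 21, 11 name 1 gene, among them WSD1, GSTU27 and AT5G44020. AT5G44020 was among the brightest members, at 610.8 and 582.4 in PBZ, 1254.8 and 1289.3 in control and 1595.2 and 1620.4 in GA.

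Among the other bright members, AT5G03350 measured 516.6 and 402.8 in PBZ, 999.5 and 1042.5 in control and 1487.8 and 1383.4 in GA. AT1G29660 measured 469.0 and 510.9, 926.5 and 933.9, and 1139.6 and 1299.0, and AT1G04040 measured 392.9 and 502.5, 768.7 and 835.8, and 1297.4 and 1153.4. All passed in GA minus PBZ (adjusted p = 0.0115, 0.0119 and 0.0139), and their GA shares were 29.8%, 29.6% and 41.9%. In PBZ minus control their adjusted p of 0.0532, 0.062 and 0.11 missed the threshold.

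At the other end were members with most of their difference between control and GA. AT1G77640 measured 12.5 and 2.6 in PBZ, 15.9 and 21.6 in control and 120.3 and 78.8 in GA, with 71.4% of its difference on the GA side. Its PBZ mean of 7.55 lies under the pseudocount, so its lower step is compressed. AT2G44500 measured 24.9 and 27.2 in PBZ, 52.6 and 43.6 in control and 148.1 and 114.4 in GA, with 65.1%. AT3G56880 measured 307.5 and 345.1, 380.3 and 530.9, and 925.9 and 823.6, with 67.6%. Their GA minus control differences were 1.91 ± 0.32, 1.28 ± 0.17 and 0.94 ± 0.19, with adjusted p of 0.18, 0.117 and 0.215.

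Nearly even steps were found in genes of both small and large signal. AT2G47440 measured 142.3 and 160.5 in PBZ, 315.1 and 286.7 in control and 736.9 and 493.5 in GA, with 50.9% on the GA side. AT5G22460 measured 77.2 and 69.9 in PBZ, 125.3 and 118.7 in control and 194.8 and 192.7 in GA, with 48.7%. AT5G64850 measured 59.3 and 57.1, 80.3 and 88.8, and 122.2 and 111.6, with 47.5%. Their steps ran from 1.34-fold (AT5G64850, GA over control) to 1.97-fold (AT2G47440, GA over control).

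Of the 31 members with at least a 4-fold difference, 18 are unnamed. The largest difference of all, 4.53 ± 0.50 (adjusted p = 0.0139), was that of an unnamed probe set, mentioned because of its value. It measured 23.3 and 18.2 in PBZ, 35.5 and 122.4 in control and 885.6 and 547.1 in GA. Its control arrays lay far apart, the first near PBZ.

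In some members the 2 control arrays disagreed. In 28 members (12.6%) the second control array was higher than the first by at least 0.5 log2 units, and in 0 was it lower by as much. Among all probe sets with a mean GA intensity of 30 or more the shares were 3.15% and 1.4%. The 28 had a median GA share of 55.9% and the 194 others one of 45.4%.

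AT4G27280 was one of them, with 93.1 and 64.5 in PBZ, 119.1 and 351.9 in control and 745.3 and 667.1 in GA. AT1G32920 read 155.9 and 148.6 in PBZ, 205.9 and 551.8 in control and 851.1 and 765.3 in GA. In both, the first control array was close to PBZ and the second lay between PBZ and GA, nearer to GA on the log2 scale. Their GA minus PBZ differences of 3.03 ± 0.46 and 2.33 ± 0.41 had adjusted p of 0.0318 and 0.0467.

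AT5G52760 and AT4G27652 were built alike, with 70.9 and 144.4, and 67.0 and 122.1, in the control arrays. AT5G52760 reached 311.4 and 295.3 in GA against 69.6 and 50.3 in PBZ. AT4G27652 reached 205.3 and 131.3 in GA against 35.5 and 44.0 in PBZ. AT3G57450 and ORA47 belonged to the same set.

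STZ (ZAT10), a zinc finger repressor induced by touch and many stresses, was the 1 measured gene of a touch and wound list of 33 and split the control arrays in the same way. It measured 38.8 and 163.7 in control, 42.8 and 43.0 in PBZ and 399.7 and 411.5 in GA, and it is no member because its first control array lay below PBZ. Its GA minus PBZ difference was 2.97 ± 0.54 (adjusted p = 0.0492). The part of handling or stress in the result was not tested. Without the second control array, 204 probe sets met the rule, 180 of them members, and without the first 290 did, 195 of them members.

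The direction between replicates was also uneven. The second control array was above the first in 151 members (68.0%), and the second GA array below the first in 162 (73.0%), with median differences of 0.114 and -0.128 log2 units. Over all probe sets with a mean GA intensity of 30 or more, the same shares were 49.2% and 50.4%. In PBZ the second array was higher in 119 members (53.6%).

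**Figure D4:**
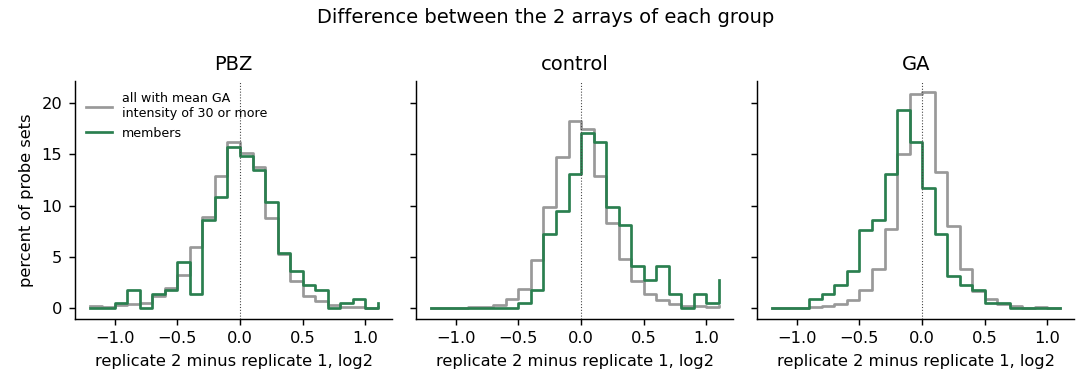
Difference between the second and first array of each group in log2(intensity + 10) (x axis), as the percentage of probe sets per bin of 0.1 (y axis), for the 222 members (green) and all probe sets with a mean GA intensity of 30 or more (grey). The outermost bins also hold larger differences. The members' curve lies to the right of the grey one in control (median 0.114) and to the left in GA (median -0.128).

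As a description of how alike the arrays of a group were, probe sets were also chosen on the first array of each group and read in the second. This is no independent check, since the rule was written with all arrays known. The same limits chose 232, and in the second arrays 199 of them (85.8%) had GA above control above PBZ. The order was found in 19.4% of 12750 probe sets that reached 30 in at least 1 of the second arrays. Those probe sets were not matched to the chosen ones for the size of their differences. The full limits were met again by 109 (47.0%). The median GA minus control difference of the chosen probe sets was 0.60 in the first arrays and 0.41 in the second, and that of GA minus PBZ 1.33 and 1.04. Control minus PBZ was 0.61 and 0.66.

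Choosing on the second arrays and reading the first, an exchange added after the data had been seen, gave 289 probe sets with the order kept in 205 (70.9%), against 16.7% of 12692. There the loss was at the lower step. Control minus PBZ had a median of 0.63 in the second arrays and 0.36 in the first.

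**Figure D5:**
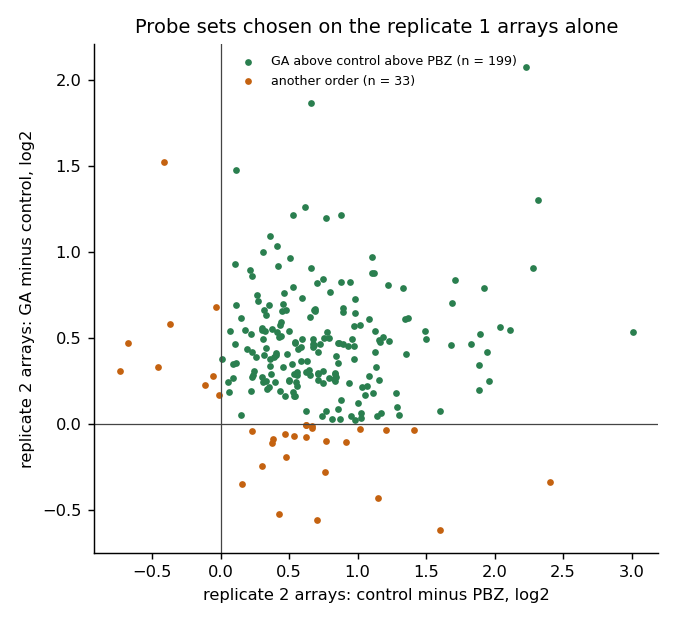
Differences in the second array of each group, control minus PBZ (x axis) and GA minus control (y axis) in log2(intensity + 10), for the 232 probe sets chosen on the first arrays alone. Points at the upper right of the zero lines, 199 of 232, kept the order of GA above control above PBZ.

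The limits of the rule ran through a continuous spread of values. The smallest GA minus control difference inside was 0.301, in an unnamed probe set, followed by 0.307 in AT3G10300, and the largest outside was 0.299. The smallest GA minus PBZ difference inside was 0.815, in AT3G07470, and AT4G32020 was just outside at 0.795. AT3G45730 missed the control minus PBZ limit at 0.288. With every other condition met, 46 probe sets failed the GA minus control limit alone, 22 the control minus PBZ limit, 23 the GA minus PBZ limit and 17 the limit on GA intensity, where AT5G35450 was outside at 25.6 and WSD1 inside at 30.4.

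Some members lay next to each other in the genome, by the order of protein-coding genes in the RefSeq table, and were picked for this after their values were seen. AT5G52750 and AT5G52760 were adjacent, with GA minus PBZ differences of 1.72 ± 0.22 (adjusted p = 0.0205) and 2.18 ± 0.31 (adjusted p = 0.0264), and AT5G52810 followed with 4 genes between. AT4G27652 and AT4G27657 had 1 gene between them, and AT5G22430 and AT5G22460 had 2. Near-identical neighbours can share probes, so such pairs may not be separate measurements.

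The 8 genes left out by name had the same order, since they met the same limits. BZIP61, a transcription factor, showed a GA minus PBZ difference of 3.40 and EXLA1, an expansin-like protein, one of 3.23, with GA shares of 28.1% and 69.2%.

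The 22 pathway lists hold 549 genes, of which the annotation names 47 on the array, spread over 15 lists. In GA minus PBZ, 6 passed higher and 2 lower, where 1.96% and 1.01% of all probe sets did, and in PBZ minus control 0 higher and 1 lower, where 0.233% and 0.281% did. In GA minus control 0 passed with limma, as over all probe sets, of which 1931 had an unadjusted p under 0.05. The median GA minus PBZ difference over the 47 was 0.10, beside -0.05 over all probe sets. Of the 6 higher, 3 were members (PME61, ACT11 and WSD1), and the others were ATPMEPCRB, STZ and WRKY22, a defence-related WRKY factor with 9.8 and 6.3 in PBZ, 9.2 and 14.5 in control and 28.4 and 23.6 in GA. THE1 was the fourth member in a list. GI, a clock gene whose level follows the time of day, measured 126.8 and 140.3 in GA, 181.0 and 188.3 in control and 210.4 and 178.0 in PBZ (GA minus PBZ -0.51 ± 0.14, adjusted p = 0.13), and the part of harvest time in the result was not tested.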

How the data were processed

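Whole rosette RNA of 6 samples was hybridised to a 1-colour oligonucleotide array. The deposited values are linear intensity values that the authors scaled: the mean after trimming 2% at each end was 100.01 in every array. RMA and the affy package are named in the submitters' processing notes, but RMA gives log2 values, so the background correction and probe summary are not given in the sources used here. Whether total or ribosome-bound RNA was labelled rests on the molecule field, total RNA.

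From the 22810 probe sets, 64 controls were removed. Names came from the platform annotation, with symbols updated through the RefSeq table of assembly TAIR10.1 by Entrez number (13436 matched) or locus code (48); 13513 probe sets name 1 gene. Differences were tested on log2(intensity + 10) with limma 3.58.1 in R 4.3.3, all groups in 1 fit (3 residual and 3.07 prior degrees of freedom), two-sided, with Benjamini-Hochberg adjustment over 22746 probe sets and a threshold of 0.05. Values with ± are log2 differences and their standard errors, and folds are of intensity + 10. The number of arrays limits the precision, and the labels call the replicates biological and say no more of their origin, so p-values measure the spread between these samples.

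The list symbols FDH and LCR were read as the cuticle genes KCS10 and CYP86A8. Members, lists and limits were chosen with earlier results of these data known. Named genes are members with 1 gene that have a symbol, are in a list, are among the 20 with the largest GA minus PBZ difference, the 10 brightest in GA, the 10 with the most equal steps or the 5 with the largest single steps, or lie next to a limit; from each list, up to 3 genes with the smallest F-test p. Alternatives were other pseudocounts, a floor, other normalizations, filters, array omissions, a block, a trend in the prior and fits of 2 groups alone.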

Additional observations from a re-analysis of the deposited data

How the results depend on the processing

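The rule, met by 222 probe sets, was met by 141 with a pseudocount of 32, all of them members, and by 204 to 290 with 1 array left out, 180 to 209 of them members; the other 6 settings gave 216 to 257. For GA minus PBZ the 675 calls became 94 with a pseudocount of 1, 292 with a floor of 10, 1350 without the 40% dimmest probe sets, 1040 with an intensity trend in the prior, 284 with the 2 groups alone and 0 to 284 with 1 array left out. For PBZ minus control the 117 calls became 0 with a pseudocount of 1 (2596 at an unadjusted p under 0.05), 248 with a pseudocount of 32, 548 without dim probe sets, 333 with the trend, 4 with the 2 groups alone and 0 to 4 with 1 array left out. For GA minus control the 0 calls became 4 with the floor, 193 without dim probe sets (41 members), 51 with the trend (12 members) and 0 with any array left out. When dim probe sets are removed, fewer are adjusted for and the prior of limma is also estimated anew. The cause of these shifts was not tested. With the replicate number as a block, the calls were 391, 47 and 1, with 137, 10 and 0 members. Between groups, the differences of second minus first array correlated at -0.001 to 0.031 over all probe sets and at -0.111 to 0.136 over the members. These values cannot show whether same-numbered arrays shared handling that touched few genes, which was not tested. Choosing on the second arrays moved the share that kept the order from 85.8% to 70.9%. All 46 named members kept their sign in the 3 comparisons under every alternative run. The selection fixes this in advance under every alternative except the other normalizations, so it is no sign of robustness. Of the named members, 0 passed under every alternative. The gene list counts of 8, 1 and 0 were the same with all probe sets of a gene averaged. A planned search for promoter motifs was not run, since no sequences were used here. With 2 arrays a group and 26.9% to 29.4% of values under the pseudocount, small steps of dim genes could not be resolved.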
